A study of Mus musculus with 9 samples.

Results

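Adrenergic signalling in the heart was followed here through 7 genes, 3 adrenergic receptors (Adrb1, Adra1a and Adra1b), the muscarinic receptor Chrm2, the adenylyl cyclases Adcy5 and Adcy6 and the receptor kinase Grk5. They were taken by gene symbol from the 20634 genes measured, and all 7 passed the filter on low counts. RNA was sequenced from the left ventricle of C57BL/6 mice at 6 months of age, in a cross of genotype and treatment. KO mice lack delta-sarcoglycan (dSG), a subunit of the sarcoglycan complex that steadies the sarcolemma during contraction, and its loss causes cardiomyopathy. The 4 groups were KO ifetroban (3 libraries), KO vehicle (2 libraries), WT ifetroban (2 libraries) and WT vehicle (2 libraries). Ifetroban, an antagonist of the thromboxane-prostanoid (TP) receptor, was given in the drinking water at 25 mg/kg/day from weaning, and vehicle mice drank plain water. All mice had running wheels at intervals, which served to bring on the cardiomyopathy, so no group was sedentary throughout. The labels do not say which exons the knockout removes, nor whether each library came from a separate animal, so p-values measure the spread between these libraries.

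Noradrenaline and adrenaline raise heart rate and force mainly through the beta1 receptor, encoded by Adrb1. This receptor activates the stimulatory G protein, which turns on adenylyl cyclase and so raises cyclic AMP and protein kinase A activity. The alpha1 receptors, encoded by Adra1a and Adra1b, act instead through Gq and phospholipase C, and Chrm2 encodes the M2 receptor through which vagal acetylcholine inhibits adenylyl cyclase. Adcy5 and Adcy6 encode the main cyclases of the adult ventricle, both inhibited by calcium, and Grk5 encodes a kinase that phosphorylates activated receptors so that they uncouple from G proteins.

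Each library held 21510263 to 30182955 counts. The libraries fell into 2 sets by how a gene's level, relative to the other libraries, ran with its transcript length (Spearman's rank correlation over 13053 genes, which are not independent replicates). The coefficient was -0.52 to -0.40 in KO ifetroban replicate 1, both KO vehicle libraries and the library labelled WT vehicle replicate 1, and 0.38 to 0.43 in the other 5. These sets are called negative-slope and positive-slope below, and no label names them. They were drawn from these same values, so a gene's difference between the sets is a description and no test. By transcript length among genes tested, Adcy5, Grk5, Adcy6 and Chrm2 lie at percentiles 91.7, 89.8, 86.9 and 84.7. Adra1a lies at 69.4, Adra1b at 52.7 and Adrb1 at 45.0. Under vehicle and in KO mice the set runs largely with the comparison, so the KO over WT ratio of each of the 7 genes is also given within the sets. These ratios pool both treatments within a set, so treatment differs in part between the KO and WT libraries compared. KO ifetroban replicate 1 carries conflicting labels, ifetroban in its title and vehicle in its treatment characteristic, and was analysed by its title. Sgcd, the targeted gene, had 7.30, 12.9 and 13.3 counts per 1000000 library-scaled counts (CPM) in KO ifetroban, 9.64 and 8.63 CPM in KO vehicle mice, and 23.7 and 23.5 CPM in WT ifetroban. It had 8.36 and 20.9 CPM in WT vehicle, so the library labelled WT vehicle replicate 1 lay within the KO range. Within KO, Sgcd had 7.30 to 9.64 CPM in negative-slope and 12.9 to 13.3 CPM in positive-slope libraries. Summed CPM of 10 cardiomyocyte markers was 38910 to 49630 in KO and 48950 to 55770 in WT libraries. The sum of 6 fibroblast markers was 932 to 1339 CPM in KO and 663 to 783 CPM in WT libraries, that of 6 macrophage markers 180 to 231 CPM and 121 to 153 CPM, and that of 5 atrial genes 373 to 933 CPM and 222 to 293 CPM. Myl7, a defining atrial gene, was at 0 in at least 1 library. Of 4 atrial genes tested, 1 was higher in KO across both treatments (edgeR adjusted p under 0.05), as were 2.06% of all genes. The part of these other cells in the results was not tested, and in whole tissue fewer cells of a type and less RNA per cell cannot be told apart. In the library labelled WT vehicle replicate 1 the fibroblast, macrophage and atrial sums (663, 134 and 237 CPM) lay below all KO libraries. Its cardiomyocyte sum (48950 CPM) lay within the KO range, and its genotype label was not tested.

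The 7 genes lie on 6 mouse chromosomes (build mm10), and all are protein-coding. Adrb1 lies on chromosome 19 (56722372 to 56724862) and Grk5 on the same chromosome at 60889749 to 61092553. Adra1a lies on chromosome 14 (66635251 to 66733462), Adra1b on chromosome 11 (43774606 to 43901210), and Chrm2 on chromosome 6 (36388084 to 36528414). Adcy5 lies on chromosome 16 (35154877 to 35305737) and Adcy6 on chromosome 15 (98589994 to 98607633). Adra1b lies 2.995 Mb from Sgcd, the targeted gene. Grk5 overlaps Zfp950 on the other strand (11.1 to 18.5 CPM) and Chrm2 overlaps 9330158H04Rik on the other strand (7.47 to 13.4 CPM). The sources used here do not state whether counting used strand, so these pairs could share reads.

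Promoter windows of 300 bases, most of them upstream of a start site, were held for 5 of the 7 genes (RefSeq, GRCm38.p6). The windows of Adrb1 and of both Adra1b starts are shown because the 2 receptors bind the same transmitters and because the pair of Adra1b starts differ in base composition, with 1 of them close to Adrb1. Capitals mark the letters TGACG or their reverse complement, the half-site bound by cyclic AMP response factors. The Adrb1 window is chr19:56721867-56722166 (plus strand), and those of Adra1b are chr11:43901188-43901487 and chr11:43836440-43836739 (both minus strand).
Adrb1: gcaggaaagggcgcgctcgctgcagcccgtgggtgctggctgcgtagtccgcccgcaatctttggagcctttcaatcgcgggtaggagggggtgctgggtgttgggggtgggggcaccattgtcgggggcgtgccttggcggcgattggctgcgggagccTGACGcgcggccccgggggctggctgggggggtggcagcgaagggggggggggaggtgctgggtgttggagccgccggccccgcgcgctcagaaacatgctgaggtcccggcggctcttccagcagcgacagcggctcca
Adra1b upstream start: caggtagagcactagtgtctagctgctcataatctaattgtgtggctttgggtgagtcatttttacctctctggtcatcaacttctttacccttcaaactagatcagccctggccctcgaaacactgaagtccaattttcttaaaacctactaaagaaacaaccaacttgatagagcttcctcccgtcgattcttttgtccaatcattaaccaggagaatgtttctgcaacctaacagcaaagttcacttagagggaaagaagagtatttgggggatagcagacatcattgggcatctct
Adra1b downstream start: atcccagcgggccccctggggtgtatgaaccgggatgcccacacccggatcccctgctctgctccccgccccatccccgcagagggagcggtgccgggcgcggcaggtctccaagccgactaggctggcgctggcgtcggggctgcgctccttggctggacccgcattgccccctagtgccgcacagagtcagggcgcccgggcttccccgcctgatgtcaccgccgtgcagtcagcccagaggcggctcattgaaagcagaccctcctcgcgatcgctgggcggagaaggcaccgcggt
The Adrb1 window is 72.3% G or C and holds 1 half-site. The upstream Adra1b window is 42.3% G or C and the downstream one 71.3%, and neither holds the half-site, searched on both strands. Of 32851 promoter windows of this length, 20.8% hold the half-site. The match describes letters in these windows and is no site of binding, and the deposited gene values add up the transcripts of both Adra1b starts.

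Levels of different genes were compared per length, as counts per kilobase of longest transcript, scaled to a sum of 1000000 in each library. Adcy6 stood highest of the 7, with a median of 60.5 (35.2 to 66.4 over 9 libraries), followed by Chrm2 at 41.3 (22.9 to 47.1) and Adcy5 at 23.7 (13.6 to 30.2). Adcy6 lay above Chrm2, and Chrm2 above Adcy5, in 9 of 9 libraries. Adra1b (median 14.9, 9.69 to 24.4) and Adrb1 (14.7, 13.2 to 21.2) did not differ beyond their spread over libraries. Adra1a (7.42, 2.84 to 11.1) and Grk5 (7.14, 4.80 to 14.03) also overlapped over most of their ranges, and the median of Adra1a was 4.10 when the length of its merged exons was used. Among relatives, the receptor kinase Adrbk1 (also named Grk2) reached 27.9, Adcy9 11.3 and Grk6 8.46. The third alpha1 receptor gene Adra1d had 3.42, and Adrb3 was listed at 0 in 5 of 9 libraries.

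**Figure D1:**
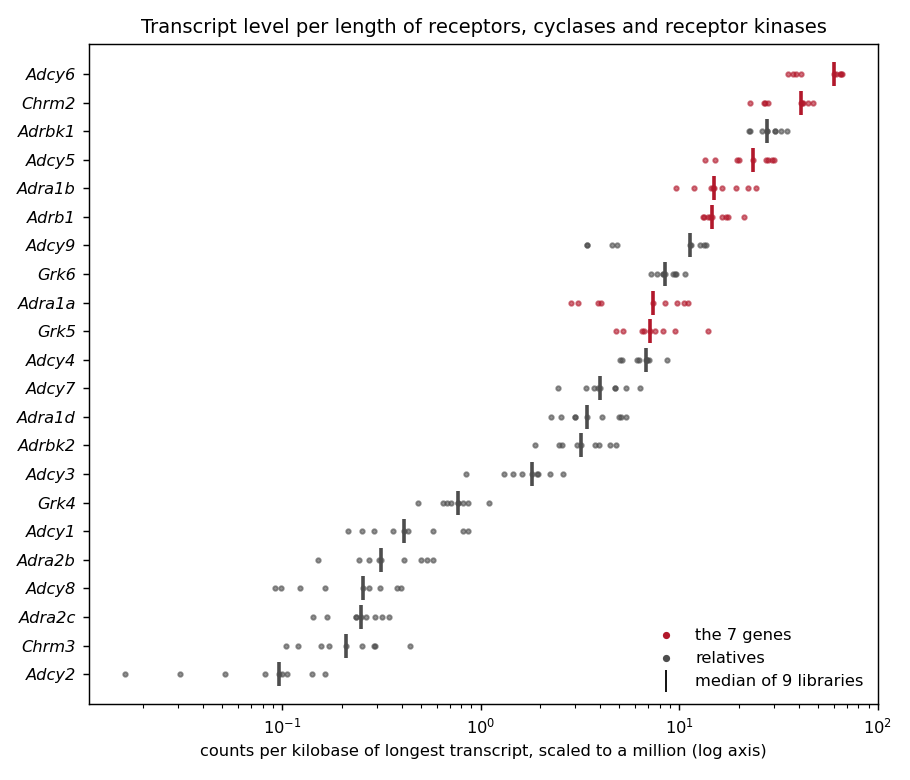
Level per length of the 7 genes (red) and of related receptors, cyclases and receptor kinases (grey), as counts per kilobase of longest transcript scaled to a sum of 1000000, on a log axis. Each dot is 1 of 9 libraries and each bar the median; Adcy6 has the highest median (60.5), and Adrb3 is left out because it is listed at 0 in several libraries.

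None of the 7 genes passed an adjusted p of 0.05 in any of the 6 comparisons (edgeR quasi-likelihood test, Benjamini-Hochberg over 15549 genes). For KO over WT across both treatments 0 of 7 passed, where 2.33% of all genes tested passed, and 3 of 7 had an unadjusted p under 0.05 (Adra1a, Adcy6 and Grk5), against 16.1% of all genes. Under ifetroban 0 of 7 passed for KO over WT (0.0386% of all genes), and 2 had an unadjusted p under 0.05 (9.36% of all genes). Under vehicle 0 of 7 passed (0.0515%), and 3 had an unadjusted p under 0.05 (7.9%). For ifetroban over vehicle 0 of 7 passed in KO (0.0% of all genes, 3 with an unadjusted p under 0.05 against 3.96%) and 0 of 7 in WT (0.0%, none with an unadjusted p under 0.05 against 2.25%). For the interaction of genotype and ifetroban 0 of 7 passed (0.0%), and Adra1b alone had an unadjusted p under 0.05 (1.92% of all genes).

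**Figure D2:**
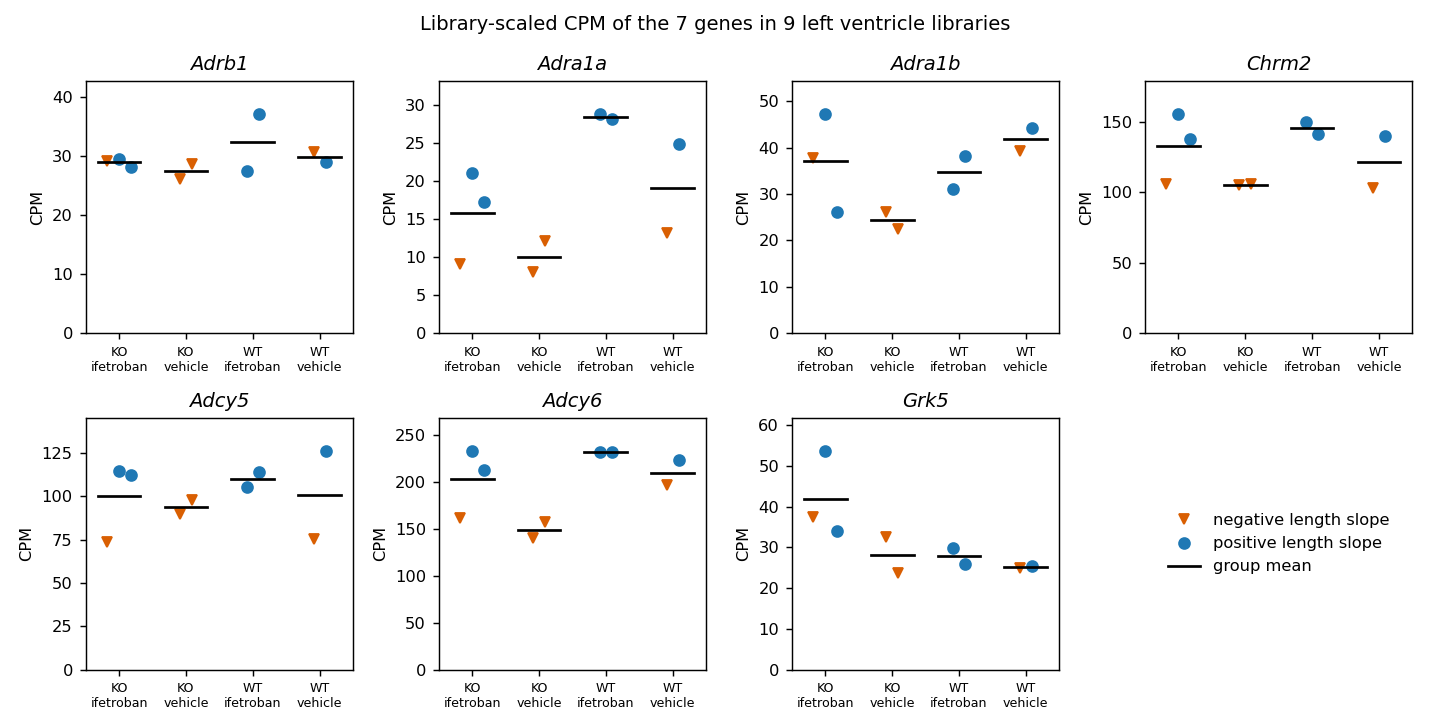
CPM of the 7 genes in each of 9 libraries, grouped as KO ifetroban, KO vehicle, WT ifetroban and WT vehicle, with orange triangles for negative-slope and blue circles for positive-slope libraries and a line at each group mean. Adrb1 keeps to 26.1 to 37.2 CPM, while Adra1a spans 8.01 to 28.8 CPM and is lowest in the negative-slope libraries.

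Adrb1, the gene of the main beta receptor of the heart, varied least among the 7. It had 29.2, 29.5 and 28.2 CPM in KO ifetroban, 26.1 and 28.8 CPM in KO vehicle, 27.5 and 37.2 CPM in WT ifetroban and 30.8 and 29.0 CPM in WT vehicle. The highest value was in WT ifetroban replicate 2, and the other 8 libraries lay within 26.1 to 30.8 CPM. The log2 change of KO over WT across both treatments was -0.14 ± 0.099 (SE, 95% interval -0.36 to 0.073, adjusted p = 0.505). That interval reaches from a fold of 0.778 to one of 1.05. Ifetroban over vehicle gave 0.079 ± 0.14 in KO and 0.11 ± 0.16 in WT mice, with adjusted p = 0.903 and 0.895. Between the slope sets Adrb1 differed by -0.047 ± 0.12 log2 units of positive over negative slope. Within the negative-slope and positive-slope sets the log2 ratio of KO over WT was -0.14 and -0.12.

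Adra1a, the gene of the alpha1A receptor, had the lowest values in KO vehicle and the highest in WT ifetroban. It had 9.13, 21.1 and 17.2 CPM in KO ifetroban, 8.01 and 12.1 CPM in KO vehicle, 28.8 and 28.1 CPM in WT ifetroban and 13.2 and 24.9 CPM in WT vehicle. The KO libraries lay below the WT libraries within each treatment, while across both treatments the ranges overlapped through the library labelled WT vehicle replicate 1. The log2 change of KO over WT was -0.88 ± 0.25 across both treatments (SE, adjusted p = 0.103), -0.84 ± 0.35 under ifetroban (adjusted p = 0.486) and -0.93 ± 0.39 under vehicle (adjusted p = 0.596). DESeq2 called the change across both treatments (-0.88, adjusted p = 0.0116). So did edgeR with KO ifetroban replicate 1 counted as vehicle (-0.78, adjusted p = 0.0433). The edgeR test did not call it with DESeq2's scaling factors (-0.88, adjusted p = 0.0947) or with a length and GC offset (-0.84, adjusted p = 0.0661). Without the low-count filter it was not called either (-0.88, adjusted p = 0.132). With KO ifetroban replicate 1 and the library labelled WT vehicle replicate 1 left out it was -0.85, and its call is given in the last section. The WT libraries left are then all positive-slope and the negative-slope ones all KO, so genotype and slope set run partly together. Other alternatives are given in the last section.

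The same gene also differed most between the slope sets, by 1.00 ± 0.17 log2 units, at the 96th percentile of all genes tested. Within the negative-slope libraries it had 8.01 to 12.1 CPM in 3 KO libraries and 13.2 CPM in the library labelled WT. Within the positive-slope libraries it had 17.2 to 21.1 CPM in 2 KO and 24.9 to 28.8 CPM in 3 WT libraries. The log2 ratio of KO over WT means was -0.44 and -0.51. The ranges did not overlap in either set, but no share over all genes was taken within the sets. In the negative-slope set, with 1 library labelled WT, Adrb1, Adra1b, Adcy6 and Chrm2 did not overlap either. With the slope set as a term of the model the change across both treatments was -0.50 ± 0.13 (adjusted p = 0.0739). For ifetroban over vehicle in KO the change was 0.66 ± 0.36 (adjusted p = 0.862), and -0.086 with that term, so its sign went with the slope set.

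Adra1b, the gene of the alpha1B receptor, had its lowest libraries in KO, both KO vehicle libraries among them. It had 37.9, 47.3 and 26.2 CPM in KO ifetroban, 26.2 and 22.4 CPM in KO vehicle, 31.2 and 38.3 CPM in WT ifetroban and 39.4 and 44.4 CPM in WT vehicle. Both KO vehicle libraries lay below both WT vehicle libraries, and KO ifetroban spread over nearly the whole range of the gene. The log2 change of KO over WT was 0.096 ± 0.22 under ifetroban (adjusted p = 0.919) and -0.78 ± 0.25 under vehicle (adjusted p = 0.413). Ifetroban over vehicle gave 0.61 ± 0.23 in KO (adjusted p = 0.862) and -0.27 ± 0.25 in WT mice (adjusted p = 0.881). The difference between these, the interaction, was 0.88 ± 0.33 (edgeR, unadjusted p = 0.0261, adjusted p = 0.9999). Unlike Adra1a, Adra1b differed little between the slope sets, by 0.050 ± 0.26. The log2 ratio of KO over WT was -0.45 within the negative-slope set, with 1 library labelled WT. It was -0.047 within the positive-slope set, where the ranges overlapped. Both ratios pool the treatments, and the fit under ifetroban within the positive-slope libraries gave 0.10. In the 4 negative-slope libraries alone the change under vehicle was -0.69 (adjusted p = 0.0383). That fit has 1 library labelled WT and 1 of KO ifetroban, so its spread comes from the 2 KO vehicle libraries, and a lone library is assumed to vary like them.

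Since Adra1b lies near the targeted locus, its neighbours were read too. Of 90 genes tested within 5 Mb of Sgcd, 0 rose and 3 fell across both treatments (Cyfip2, Gm12167 and Pttg1), where 2.06% of all genes tested rose and 0.27% fell. Of these, Pttg1 ends 348 kb from Adra1b. The nearest tested protein-coding genes on either side of Adra1b were Ttc1 and Ublcp1. Across both treatments they had log2 changes of 0.24 ± 0.10 and -0.52 ± 0.14 (adjusted p = 0.266 and 0.101). Under vehicle they had 0.19 ± 0.16 and -0.67 ± 0.22 (adjusted p = 0.847 and 0.418). Neither passed, and the part of the surrounding strain sequence in the Adra1b values was not tested.

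Chrm2, the gene of the M2 muscarinic receptor, split by slope set and not by genotype. It had 106, 156 and 138 CPM in KO ifetroban, 105.0 and 106 CPM in KO vehicle, 149.6 and 142 CPM in WT ifetroban and 103 and 139.8 CPM in WT vehicle. All 4 negative-slope libraries had 103 to 106 CPM and all 5 positive-slope ones 138 to 156 CPM, whatever their genotype. Between the slope sets Chrm2 differed by 0.46 ± 0.079 log2 units, at the 83rd percentile of all genes tested. The sets were drawn from these same values, and no share of all genes that separate this way was taken. The log2 change of KO over WT across both treatments was -0.16 ± 0.13 (adjusted p = 0.563), with ratios of 0.038 and 0.031 within the negative-slope and positive-slope sets. Ifetroban over vehicle gave 0.34 ± 0.19 in KO and 0.26 ± 0.20 in WT mice, with adjusted p = 0.862 and 0.881, and 0.012 and 0.050 with the slope set as a term.

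Adcy6, the more abundant cyclase, was lowest in KO vehicle. It had 162, 234 and 213 CPM in KO ifetroban, 140.0 and 158 CPM in KO vehicle, 232 and 232 CPM in WT ifetroban and 197 and 223 CPM in WT vehicle. Both KO vehicle libraries lay below every other library, next to KO ifetroban replicate 1, which shares their slope. KO over WT gave a log2 change of -0.33 ± 0.12 across both treatments (adjusted p = 0.210), -0.19 ± 0.16 under ifetroban (adjusted p = 0.772) and -0.50 ± 0.18 under vehicle (adjusted p = 0.502). Ifetroban over vehicle in KO gave 0.45 ± 0.16 (adjusted p = 0.862), with no overlap between the groups. Within the sets, the log2 ratio of KO over WT was -0.36 in the negative-slope libraries, with 1 labelled WT, and -0.035 in the positive-slope ones.

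Adcy5, the other calcium-inhibited cyclase, had a KO over WT change whose sign went with the treatment of the slope sets. It had 73.5, 115 and 112 CPM in KO ifetroban, 90.0 and 97.6 CPM in KO vehicle, 105 and 114 CPM in WT ifetroban and 75.3 and 126 CPM in WT vehicle. The groups overlapped in every comparison, and the 4 negative-slope libraries were the 4 lowest. Between the slope sets Adcy5 differed by 0.68 ± 0.079 log2 units, at the 91st percentile of all genes tested. No share of all genes that separate this way was taken. The log2 change of KO over WT across both treatments was -0.12 ± 0.17 (adjusted p = 0.767), and 0.16 ± 0.074 with the slope set as a term (adjusted p = 0.298). Within the negative-slope and positive-slope sets the log2 ratio of KO over WT was 0.21 and -0.022, with overlap in both. These ratios pool the treatments. The fits within the sets gave 0.32 under vehicle (negative-slope) and 0.067 under ifetroban (positive-slope). Per length, the ratio of Adcy5 to Adcy6 was 0.391, 0.424 and 0.453 in KO ifetroban, 0.554 and 0.534 in KO vehicle, 0.392 and 0.424 in WT ifetroban and 0.329 and 0.487 in WT vehicle. Both KO vehicle libraries had the highest ratios of the 9.

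Grk5 was the one gene of the 7 with a positive change in KO across both treatments. It had 37.5, 53.7 and 34.1 CPM in KO ifetroban, 32.6 and 23.8 CPM in KO vehicle, 29.8 and 26.0 CPM in WT ifetroban and 25.0 and 25.4 CPM in WT vehicle. All 3 KO ifetroban libraries lay above the other 6, and KO vehicle replicate 2 was the lowest of the 9. On the log2 scale KO over WT was 0.39 ± 0.16 across both treatments (adjusted p = 0.268), 0.58 ± 0.21 under ifetroban (adjusted p = 0.412) and 0.16 ± 0.23 under vehicle (adjusted p = 0.919). Ifetroban over vehicle gave 0.57 ± 0.21 in KO (adjusted p = 0.862) and 0.15 ± 0.23 in WT mice (adjusted p = 0.906), and the interaction was 0.42 ± 0.31 (adjusted p = 0.9999). The log2 ratio of KO over WT was 0.32 within the negative-slope set, where the ranges overlapped. It was 0.70 within the positive-slope set, with 2 KO and 3 WT libraries. Set against Adrbk1, the more abundant receptor kinase gene, the ratio of Grk5 per length was 0.227 to 0.400 in KO and 0.213 to 0.256 in WT libraries.

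**Figure D3:**
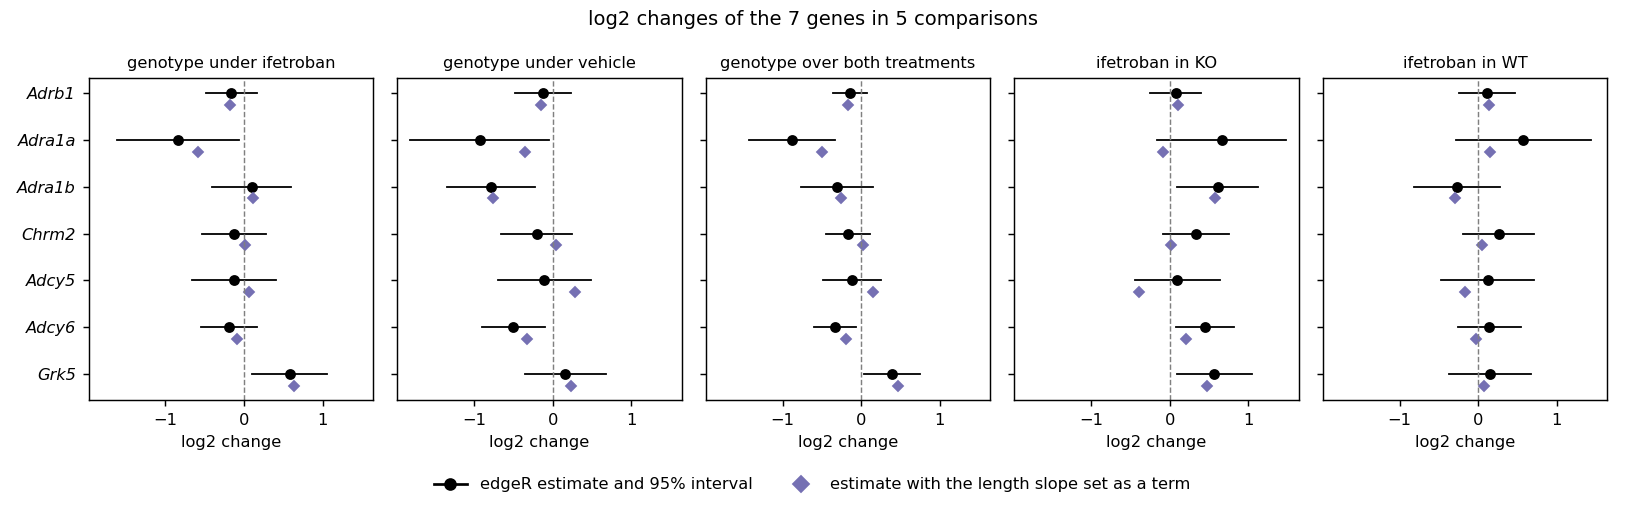
log2 changes of the 7 genes in 5 comparisons (KO over WT under ifetroban, under vehicle and across both treatments, and ifetroban over vehicle in KO and in WT), with dots and lines for the edgeR estimate and its 95% interval and diamonds for the estimate with the slope set as a term. Across both treatments Adra1a has the lowest estimate (-0.88) and Grk5 the one positive estimate (0.39), and the diamonds of Adcy5 and Chrm2 lie on the other side of 0 from their dots there.

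Groups that did not overlap were frequent at this number of libraries. Under vehicle 4 of 7 genes had both KO libraries below both WT libraries (Adrb1, Adra1a, Adra1b and Adcy6), where 35.9% of all genes tested had groups that did not overlap. Under ifetroban Grk5 lay higher and Adra1a lower in KO without overlap (29.1% of all genes). Across both treatments 0 of 7 had KO and WT libraries that did not overlap (7.0% of all genes). For ifetroban over vehicle 2 of 7 were higher without overlap in KO (Adcy6 and Grk5, 20.1% of all genes). In WT 4 were higher (Adra1a, Adcy6, Chrm2 and Grk5) and Adra1b was lower (31.4% of all genes). The median log2 change of the 7 across both treatments was -0.16, against -0.016 for all genes tested. Of the 7, 6 were negative, where 47.0% of all genes were positive. With the slope set as a term Adcy5 and Chrm2 were positive there (0.16 and 0.024). For ifetroban over vehicle in KO the median was 0.45, against 0.0080 for all genes. All 7 were positive in that comparison, as were 51.2% of all genes. With the slope set as a term, however, Adra1a and Adcy5 were negative (-0.086 and -0.39). Leaving out both libraries whose slope is opposite to the rest of their group, KO ifetroban replicate 1 and the library labelled WT vehicle replicate 1, gave calls. Then 4 genes passed under vehicle, all lower in KO (Adra1a, Adcy5, Adcy6 and Chrm2, where 9.63% of all genes passed), and 3 for ifetroban in KO, all higher (Adra1a, Adcy6 and Chrm2, where 11.6% passed). In that selection WT vehicle is 1 library, assumed to vary like the other groups. These comparisons then set negative-slope against positive-slope libraries, so genotype or treatment and slope set cannot be told apart.

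The wider pathway was read from 11 lists of 172 genes, of which 154 were tested. Across both treatments 3 of these rose in KO (2.06% of all genes tested rose) and 1 fell (0.27% fell), and 0 passed in each of the other 5 comparisons, the 7 genes included. Adcy7, a cyclase gene outside the calcium-inhibited pair, rose by 0.55 ± 0.10 on the log2 scale (adjusted p = 0.0217). It averaged 18.8 ± 1.57 CPM in KO (SD, n = 5) and 12.8 ± 0.949 CPM in WT libraries (SD, n = 4). Arrb2, which encodes the receptor-binding protein beta-arrestin 2, rose by 0.62 ± 0.12 (adjusted p = 0.0258), with 9.77 to 12.1 CPM in KO and 5.83 to 7.49 CPM in WT libraries. Prkcd, the gene of protein kinase C delta, rose by 0.50 ± 0.099 (adjusted p = 0.0292), with 14.2 to 19.5 CPM in KO and 10.4 to 13.8 CPM in WT libraries. Pde7a, which encodes a phosphodiesterase that breaks down cyclic AMP, fell by 0.52 ± 0.092 (adjusted p = 0.0201), with 19.3 to 24.4 CPM in KO and 30.5 to 34.8 CPM in WT libraries. For each of these 4 the KO and WT ranges did not overlap, as for 7.0% of all genes tested. The 4 were picked by the test on these same libraries, so this adds no separate evidence. All kept their sign with any 1 library left out, and kept the call in 5, 3, 2 and 5 of 9 such fits. With the slope set alone as a term all 4 kept the call (edgeR adjusted p = 0.00299 to 0.0352). With the replicate number as a block and the slope set as terms together, a fit chosen after seeing the data, none kept the call (adjusted p = 0.0538 to 0.206). The log2 changes in that joint fit were 0.60, 0.62, 0.40 and -0.46. Over the same libraries the macrophage marker sum did not overlap between KO and WT, and 4 of its 6 genes rose, so the part of macrophages in these 4 genes was not tested.

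**Figure D4:**
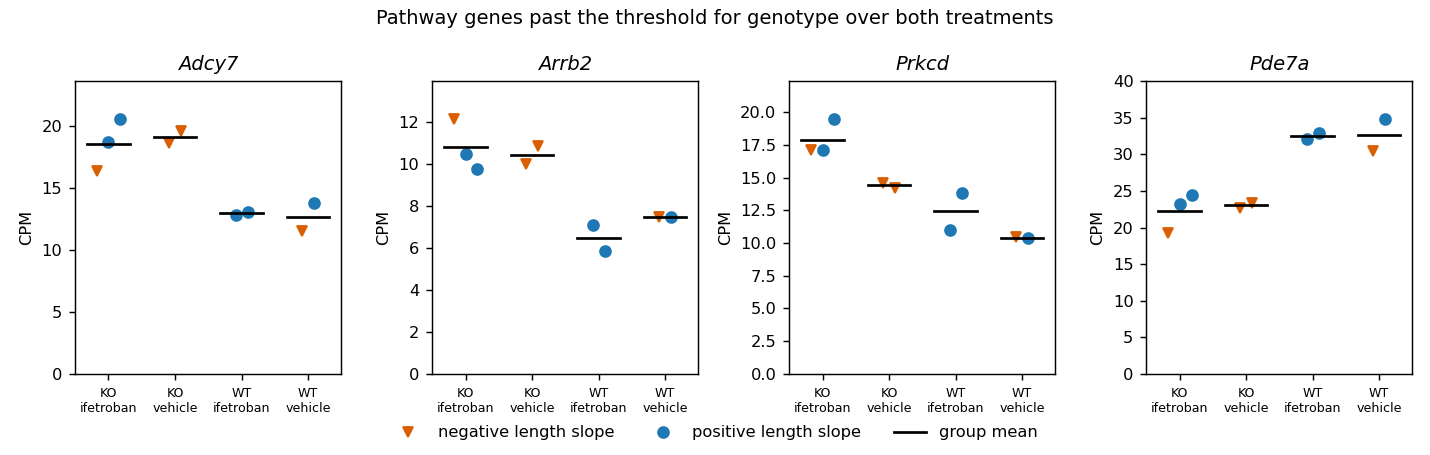
CPM of the 4 pathway genes past the threshold for KO over WT across both treatments, by group, with symbols for the slope sets and a line at each group mean. Adcy7, Arrb2 and Prkcd lie higher in all 5 KO libraries than in the 4 WT libraries, and Pde7a lies lower, in both slope sets. The genes were picked by the test on these same libraries.

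In the other comparisons the list genes with the smallest p in each direction did not pass. Under ifetroban, KO over WT was 0.74 ± 0.16 for Arrb2 (adjusted p = 0.138) and 0.84 ± 0.23 for Rrad, a GTPase gene that restrains the L-type calcium channel (adjusted p = 0.223). The lowest were Pde7a (-0.54 ± 0.13) and Slc22a3, an extraneuronal catecholamine transporter gene (-0.56 ± 0.17). Under vehicle, Adcy7 had 0.60 ± 0.16 and Prkcd 0.47 ± 0.16, and Pde7a had -0.50 ± 0.15 and Maob, a monoamine oxidase gene, -0.42 ± 0.13 (adjusted p = 0.320 to 0.451). For ifetroban over vehicle in KO these were Adcy6 and Grk5, given above, and the G protein subunit genes Gng11 (-0.50 ± 0.24) and Gnb3 (-0.50 ± 0.29). In WT they were Adora1 (0.43 ± 0.17), Rgs3 (0.30 ± 0.14), Rrad (-0.88 ± 0.25) and Nr4a1 (-3.001 ± 1.156), at an adjusted p of 0.881. Nr4a1, an immediate early gene, had 164 CPM in the library labelled WT vehicle replicate 1 and 9.004 to 112 CPM in the other 8. For the interaction they were Adra1b, Rrad (0.80 ± 0.33), Gng7 (-1.37 ± 0.61) and Gnb3 (-0.82 ± 0.43).

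By list, the receptor kinases and arrestins (7 tested) had 1 rise and no fall across both treatments, and the adenylyl cyclases (8 tested) 1 rise. The 17 phosphodiesterases had 1 fall, and the 18 genes of the Gq pathway and protein kinase C had 1 rise. In the remaining lists none passed, and these were the adrenergic receptors (7 tested), the muscarinic and adenosine receptors (5), G protein subunits (23), RGS proteins (15), protein kinase A with its anchors and Epac (24), its substrates and transcription factors (21), and the handling of catecholamines and acetylcholine (9). The median log2 change over all 154 genes was -0.054, against -0.016 for all genes tested.

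The genes most like each of the 7 over the 9 libraries were those with the smallest root mean square (RMS) difference of centred log2(CPM + 0.1). For Chrm2 they were Atf7, Xiap and Fasn (0.039 to 0.054), for Adcy6 Cacna2d1, Atxn7 and Cpeb4 (0.061 to 0.075), and for Adcy5 Fam178a and Fut11 (0.054 and 0.065). For Adra1a they were Cdh23, Lrrc16b and Scn4a (0.11 to 0.20), for Adra1b Fam217b, Ret and Zcchc7 (0.17 to 0.19) and for Grk5 Syvn1, Ddx31 and Itga5 (0.12 to 0.16). Adrb1, whose own RMS deviation was 0.13, lay closest to Wdr82, Rrnad1 and Hexim1 (0.064 to 0.067). Among the 7 the closest pair was Chrm2 and Adcy6 (0.13). Both were higher in the positive-slope libraries, by 0.46 and 0.34 log2 units. The part of the slope sets in the likenesses of this paragraph was not tested.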

How the data were processed

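The authors deposited expected counts by gene for 9 libraries, and 28.2% of the values are not whole. Per the submitters' processing notes, bcl2fastq, STAR and Partek were used with mm10. The sources used here give no versions, counting rule or strand. The 7 genes, the lists and the tests were chosen with earlier results of these data known.

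Expected counts were rounded and genes kept with filterByExpr (minimum count 10), which left 15549. They were scaled by TMM and tested with edgeR 4.0.16 (R 4.3.3, robust quasi-likelihood) on 4 group means, or on genotype plus treatment for the change across both. SE is the change divided by the square root of F. CPM uses TMM-scaled totals. Depth was 21510263 to 30182955 counts, and intervals cover the spread between libraries. DESeq2 1.42.0, other scalings and filters, the slope sets, the conflicting label and each library left out were alternatives. Transcript lengths are from GENCODE M21. Pathway genes were named by adjusted p (up to 5 per comparison), the 7 genes in any case. No pair of libraries in a group agreed within sampling noise. The test was checked on simulated data without slope sets. Of simulated log2 changes of 1 it recovered 75.2% across both treatments, 53.8% under ifetroban and 34.7% under vehicle. For ifetroban it recovered 54.9% in KO, 50.9% in WT and 13.5% for the interaction. Some genes of the pathway lists and of the nearest genes are not reported here.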

Additional observations from a re-analysis of the deposited data

How the results depend on the processing

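Of 784 log2 changes of the 7 genes under alternatives, 702 kept their direction and their side of the threshold, 13 kept their direction and passed it, 0 lost a call and 69 changed sign. None of those 69 had an adjusted p under 0.05, and 6 had an unadjusted p under 0.05. They fell on Adcy5 (33), Chrm2 (15), Adra1a (8), Adrb1 (6), Grk5 (3), Adra1b (2) and Adcy6 (2). The cause was not tested unless stated.

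The count of genes called stayed at 0 in all 6 comparisons with any 1 library left out. Across both treatments it was 1, Adra1a each time, with DESeq2's Wald test (5.77% of all genes called), with KO ifetroban replicate 1 counted as vehicle (-0.78, adjusted p = 0.0433, 3.41% called) and with the replicate block (-0.96, adjusted p = 0.0195, 3.54% called), against 2.33% as reported. It was 1 under vehicle in the negative-slope libraries only (Adra1b, 1.6% of all genes called), and 1 under ifetroban with the replicate block and the slope set together (Grk5, 1.00, adjusted p = 0.0156, 1.49% called). Replicate numbers were not taken as pairs, since no label says that they are and not every same-numbered pair correlated above 0.1 in its deviations from the group means (-0.062 to 0.50). Leaving out both libraries whose slope is opposite to the rest of their group, chosen after seeing the data like the joint block and slope fit, gave 4 under vehicle, 3 for ifetroban in KO and 1 across both treatments. The 4 under vehicle were Adra1a (-1.30), Adcy5 (-0.42), Adcy6 (-0.58) and Chrm2 (-0.40), with adjusted p of 0.00974 to 0.0420. The 3 in KO were Adra1a (0.93), Adcy6 (0.59) and Chrm2 (0.48), and across both treatments Adra1a passed (-0.85, adjusted p = 0.0430). By construction, the WT libraries left are all positive-slope and the negative-slope ones left are all KO. Genotype under vehicle and ifetroban in KO then coincide with the slope sets, and WT vehicle is 1 library, assumed to vary like the other groups. Calls over all genes were then 1541 and 1856, against 8 and 0 as reported, and the cause was not tested.

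The log2 changes that turned sign were as follows. With the replicate block they were Adcy5 for ifetroban in KO (-0.029) and the Adra1a interaction (-0.14). With KO ifetroban replicate 1 counted as vehicle they were Adcy5 (0.049) and Chrm2 (0.012) under ifetroban and the Adcy5 interaction (0.26). With the slope set as a term, Adcy5 and Chrm2 for KO over WT were 0.28 and 0.046 under vehicle, 0.066 and 0.0079 under ifetroban and 0.16 and 0.024 across both. With that term ifetroban gave -0.086 for Adra1a and -0.39 for Adcy5 in KO, and -0.17 for Adcy5 and -0.027 for Adcy6 in WT, and the interaction was -0.24 for Adra1a and -0.038 for Chrm2. Within the negative-slope libraries Adcy5 (0.32) and Chrm2 (0.042) turned under vehicle, and Adra1a (-0.14) and Adcy5 (-0.35) for ifetroban in KO. Within the positive-slope libraries Adcy5 (0.067) and Chrm2 (0.030) turned under ifetroban, and Adcy5 (-0.22) for ifetroban in WT. The other comparisons were not fitted within a set. With the length and GC offset Adcy5 was 0.053 under vehicle, 0.022 across both and -0.14 for ifetroban in KO, and in WT ifetroban gave -0.079 for Adcy5, -0.042 for Adcy6 and -0.070 for Grk5. With the replicate block and the slope set together, Adcy5 and Chrm2 were 0.23 and 0.083 under vehicle, 0.034 and 0.086 under ifetroban and 0.13 and 0.084 across both. In that fit ifetroban gave -0.32 for Adcy5 in KO, -0.12 for Adcy5 and -0.16 for Grk5 in WT, and the Adra1a interaction was -0.17. With both libraries of opposite slope left out, Adcy5 (0.067) and Chrm2 (0.031) turned under ifetroban, Adcy5 for ifetroban in WT (-0.22) and the Adcy5 interaction (0.49).

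With 1 library left out in turn, Adcy5 ran from -0.42 to 0.32 under vehicle, from -0.22 to 0.050 under ifetroban, from -0.22 to 0.023 across both, from -0.0015 to 0.28 for ifetroban in KO, from -0.22 to 0.54 in WT and from -0.45 to 0.32 for the interaction. Chrm2 ran from -0.40 to 0.036 under vehicle, from -0.24 to 0.013 under ifetroban and from -0.17 to 0.30 for the interaction. Adrb1 ran from -0.36 to 0.071 under ifetroban, from -0.12 to 0.32 for ifetroban in WT and from -0.24 to 0.20 for the interaction. Adra1b ran from -0.10 to 0.31 under ifetroban, Grk5 from -0.092 to 0.37 under vehicle and the Adra1a interaction from -0.45 to 0.48. Of the 4 pathway genes called across both treatments, all kept the call with the slope set alone as a term. All lost it with the replicate block and the slope set together, with their direction kept (Adcy7 0.60, adjusted p = 0.0538). Groups hold 2 or 3 libraries, and the lowest count of any of the 7 genes in a library was 195.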
